A study of Mus musculus with 127 samples.

Results

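Erythropoietin-treated and untreated red cell precursors with the same class label, class B, were compared across all genes: 21 of all the single cells of the series. The EPO-treated group held 11 cells of wild-type mice given erythropoietin (EPO), which controls how many red cells the marrow makes, and the wild-type group held 10 cells of mice without it. All were marrow cells of C57BL/6J mice, labelled as erythroblasts, each captured and imaged in its own chamber of a microfluidic chip before its RNA was amplified. The members were taken from the class label, the letter B with the prefix of each group. The sources used here do not give the EPO dose, the times or the ages of the mice. Because the labels tie no cell to an animal, a group was taken as 1 sample, and the values below describe these cells with no p-value, no standard error and no replicate check. EPO-treated cells came from chips 6 (2 cells) and 7 (9 cells) and wild-type cells from chip 3, so group and chip cannot be told apart. The columns of the groups also differed in format: in EPO-treated cells 100% of values above 0 carried no more than 2 decimals, against 0.0037% in wild-type cells, so they may have been processed apart, and this cannot be told apart from the group either.

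Erythroblasts mature in the marrow from large dividing cells into small cells filled with hemoglobin. EPO binds its receptor on early erythroblasts, and the kinase Jak2 then activates Stat5, whose targets include Cish, Pim1 and Fam132b. GATA1 and KLF1 switch on the genes of globin, of the heme pathway and of the red cell membrane, while Ter119 antigen builds up on the surface. A letter did not stand for 1 level of that antigen. Normalized Ter119 fluorescence was 0.00064 at the lowest, 0.0988 at the median and 0.197 at the highest in EPO-treated cells, against 0.330, 0.452 and 0.541 in wild-type cells. The groups did not overlap, and whether the scale is shared between chips was not tested.

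Both groups were erythroid. All 12 erythroid markers were detected in some cell of each group, that is, at an RPKM (read number scaled to transcript length and library depth) of at least 1. At least 3 were detected in 11 of the 11 EPO-treated cells (100%, exact 95% interval 71.5% to 100%) and 10 of the 10 wild-type cells (100%, 69.2% to 100%). Intervals here cover counting error only. The number of these markers per cell was 7 at the lowest, 9 at the median and 12 at the highest in EPO-treated cells, against 11, 11 and 12 in wild-type cells. On the log2 scale described below, 6 of the 12 were lower in EPO-treated cells by at least 1 and 0 were higher. Their median difference was -1.03. Of the 3483 genes compared below, 39% were lower by at least 1 and 5.94% were higher. Of 22 markers of granulocytes and monocytes, 18 were at 0 in all cells of each group, and 3 or more were found in 0 of the 11 EPO-treated cells and in 1 of the 10 wild-type cells, number 42. Macrophage, B cell, T and NK cell and early progenitor markers reached 3 in no cell of either group. Globin transcripts took 17.0% to 82% of the summed RPKM of EPO-treated cells, with a median of 45.8%, and 28.9% to 88.8% in wild-type cells, with a median of 45.8%.

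The number of detected genes differed between the groups. It was 991 at the lowest, 1771 at the median and 3982 at the highest in EPO-treated cells, against 1500, 3033.5 and 3746 in wild-type cells. The ranges overlapped, but 6 EPO-treated and 2 wild-type cells had fewer than 2000 genes. The wild-type pair, cells 44 and 23, had 88.8% and 87.8% of their RPKM in globin, the highest shares of all 21 cells. Read depth is unknown. Because a gene missed in a shallow cell counts as 0, most results are also given for the 5 EPO-treated and 8 wild-type cells with at least 2000 detected genes, a limit chosen after the values were seen. Their median of detected genes was 2626 in EPO-treated and 3327.5 in wild-type cells, so this narrows the gap but leaves it.

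**Figure D1:**
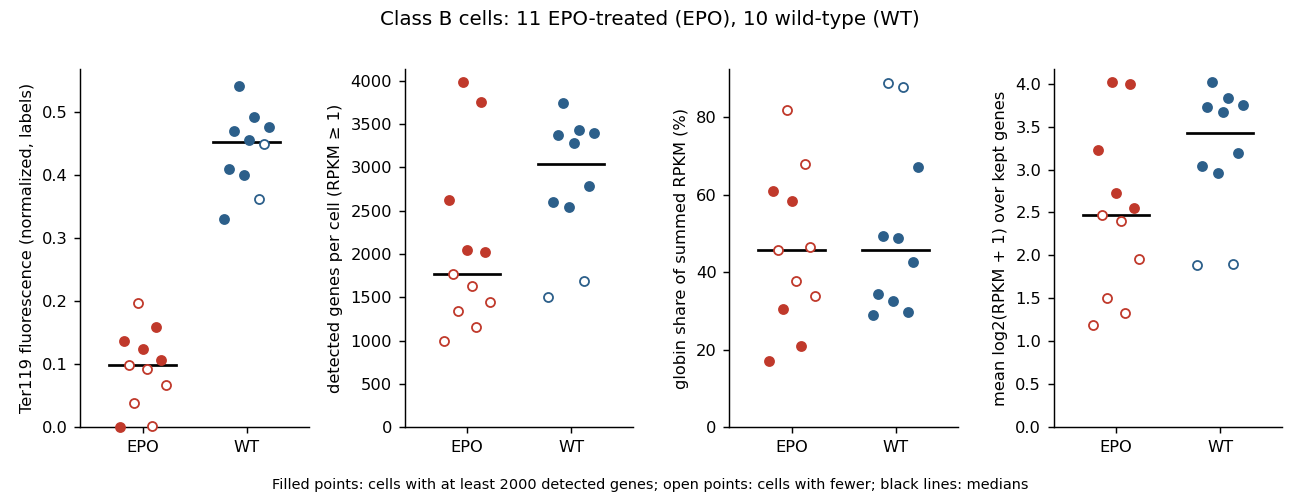
Points are single class B cells, EPO-treated left and wild-type right. The 4 panels show Ter119 fluorescence (normalized, from the labels), detected genes per cell, the globin share of summed RPKM in percent and the mean log2(RPKM + 1) over 3483 genes. Filled points are cells with at least 2000 detected genes, and black lines are medians. Ter119 does not overlap between the groups, while the median globin share is 45.8% in both.

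Levels were taken as log2(RPKM + 1), and a difference is the mean of the EPO-treated cells minus the mean of the wild-type cells on that scale, which understates the change of genes near 0. Of the 3483 genes kept for a mean level of at least 1 over both groups, 207 were higher in EPO-treated cells by at least 1 (5.94%) and 1359 were lower by at least 1 (39%). The median gene differed by -0.66, and every list of genes below is read against that value. Measured from the median gene, 617 genes were higher by at least 1 (17.7%) and 686 were lower (19.7%). Quantile normalization moved the median to -0.22, with 600 genes higher and 991 lower. In the cells with at least 2000 detected genes it was -0.13, with 793 of 4053 kept genes higher (19.6%) and 1045 lower (25.8%). Of the 207 genes, 174 were still higher there by at least 1 and 3 had turned to 0 or below. Of the 1359 genes, 835 were still lower by at least 1 and 145 had turned to 0 or above.

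Few genes separated every cell of a group from every cell of the other. No gene of 3483 was higher in every EPO-treated cell than in every wild-type cell (0%). A single gene was lower without overlap (0.0287%), Itm2b (NM_008410), which encodes a membrane protein. Its levels were 0, 0 and 2.70 (lowest, median and highest) in EPO-treated cells, against 2.70, 4.52 and 7.40 in wild-type cells. The highest EPO-treated and the lowest wild-type cell were equal at 2 decimals, and the difference was -4.03.

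Genes of heme synthesis, which build the iron-bearing group of hemoglobin in and around the mitochondrion, were lower than the median gene. Of 15 kept members of 16, 11 were lower by at least 1, 0 were higher, and the median difference was -2.34. Relative to the median gene 9 were lower by at least 1 and 1 was higher, beside 19.7% and 17.7% of all kept genes. Taking the mean over the kept members in each cell, EPO-treated cells had 1.97, 4.49 and 5.56 and wild-type cells had 5.09, 5.68 and 6.69. The groups overlapped only through EPO-treated cell 11, the highest of its group. Among cells with at least 2000 detected genes 7 of 16 were lower, 1 was higher, and the median was -0.85 beside -0.13 over all genes. The shares of all genes kept in those cells were 25.8% lower and 19.6% higher.

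The steps of the pathway were not alike. Alas2 (NM_001102446), the first and rate-limiting enzyme of the erythroid pathway, had levels of 0, 6.00 and 9.37 in EPO-treated cells, against 4.43, 9.27 and 10.34 in wild-type cells. It was detected in 9 of the 11 EPO-treated cells and in 10 of the 10 wild-type cells, and the difference was -2.78, or -2.55 in the cells with at least 2000 detected genes. Alad (NM_001276446), the second enzyme, had 0, 6.16 and 8.19 in EPO-treated cells, against 6.86, 7.85 and 8.23 in wild-type cells. Its lowest wild-type cell lay above the EPO-treated median, but its difference of -3.09 rested in part on cells with few genes and was -0.79 without them. Urod (NM_009478), which acts later, differed by -2.38, or -0.91 in the cells with at least 2000 detected genes.

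Other steps differed by less than 1. Uros (NM_001302087), which acts just before Urod, differed by -0.18, with medians of 6.47 in EPO-treated and 7.06 in wild-type cells. Cpox (NM_007757), the next enzyme after Urod, differed by -0.42 and was detected in 11 of the 11 EPO-treated and 10 of the 10 wild-type cells. The step after that stood at the other end. Ppox (NM_008911) had 0, 2.61 and 6.93 in EPO-treated cells, against 3.12, 6.98 and 8.11 in wild-type cells, a difference of -4.18. The groups overlapped, 6 of the 11 EPO-treated cells had it detected against 10 of the 10 wild-type cells, and the difference was -2.41 in the cells with at least 2000 detected genes. Fech (NM_007998), which inserts the iron, differed by -0.85.

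Among the carriers, Slc25a38 (NM_144793), a mitochondrial glycine carrier that feeds Alas2, differed by -2.94, with medians of 1.58 in EPO-treated and 7.06 in wild-type cells. The mitochondrial transporters Abcb10 (NM_019552) and Abcb6 (NM_023732) were detected in 1 of the 11 EPO-treated cells each, against 5 and 6 of the 10 wild-type cells. Tmem14c (NM_025387), a mitochondrial porphyrin carrier, was the member that stood highest, with a difference of 0.47 and all cells of both groups at 6.24 or more.

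Genes of the red cell membrane and its skeleton also stood lower. Of 33 kept members of 35, 22 were lower by at least 1 and 0 were higher, with a median difference of -1.52. Relative to the median gene 14 were lower by at least 1 and 1 was higher, beside 19.7% and 17.7% of all kept genes. The mean over these members was 2.25, 3.72 and 4.73 in EPO-treated cells, against 4.78, 5.25 and 5.67 in wild-type cells, with no overlap. EPO-treated cells 19 and 6 had the most detected genes of their group (3758 and 3982) and lay at 4.73, while wild-type cells 44 and 23 had the fewest of theirs (1688 and 1500) and lay at 5.47 and 5.12. Over the cells with at least 2000 detected genes 18 of 33 were lower, 0 were higher, and the median was -1.11.

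Stom (NM_013515), stomatin, an integral protein of the red cell membrane, showed the widest gap. It was detected in 0 of the 11 EPO-treated cells, so that a true share up to 28.5% is possible (exact 95% interval), and in 9 of the 10 wild-type cells (90%, 55.5% to 99.7%). Its levels were 0, 0 and 0.11 in EPO-treated cells, against 0, 5.42 and 6.62 in wild-type cells. Cell 39 was the only wild-type cell at 0, so the difference of -4.69 had a wild-type side in 9 of 10 cells. Among cells with at least 2000 detected genes it was -4.34.

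The surface proteins Ermap and Icam4, both blood group carriers, differed by more than 4. Ermap (NM_013848) had 0, 2.44 and 6.87 in EPO-treated cells, against 6.29, 6.97 and 8.12 in wild-type cells. EPO-treated cell 1 was the only one of its group within the wild-type range, and the difference was -4.29, or -3.46 in the cells with at least 2000 detected genes. Icam4 (NM_023892), an adhesion molecule of erythroblasts, had 0, 0.66 and 5.99 in EPO-treated cells, against 3.89, 6.59 and 8.11 in wild-type cells, a difference of -4.13, or -2.61 in the cells with at least 2000 detected genes. Its wild-type cells all had it detected, against 5 of the 11 EPO-treated cells.

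Slc4a1 (NM_011403), the anion exchanger band 3, had 0, 3.15 and 5.89 in EPO-treated cells, against 4.88, 5.85 and 6.78 in wild-type cells, a difference of -2.78, or -2.14 in the cells with at least 2000 detected genes. Protein 4.2, which ties band 3 to the skeleton and is listed as Epb4.2 (NM_013513), differed by -3.62 and was detected in 5 of the 11 EPO-treated and 10 of the 10 wild-type cells. Gypc (NM_001048207), a glycophorin that anchors the skeleton, differed by -3.05, detected in 2 of the 11 EPO-treated and 10 of the 10 wild-type cells. Not every membrane gene stood lower. Cd24a (NM_009846), a surface protein of early erythroblasts, had 9.10, 10.34 and 11.13 in EPO-treated cells, against 9.78, 10.10 and 10.71 in wild-type cells, a difference of 0.07. Tmod1 (NM_021883), which caps actin filaments of the skeleton, differed by -0.49 with the ranges of the groups overlapping.

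**Figure D2:**
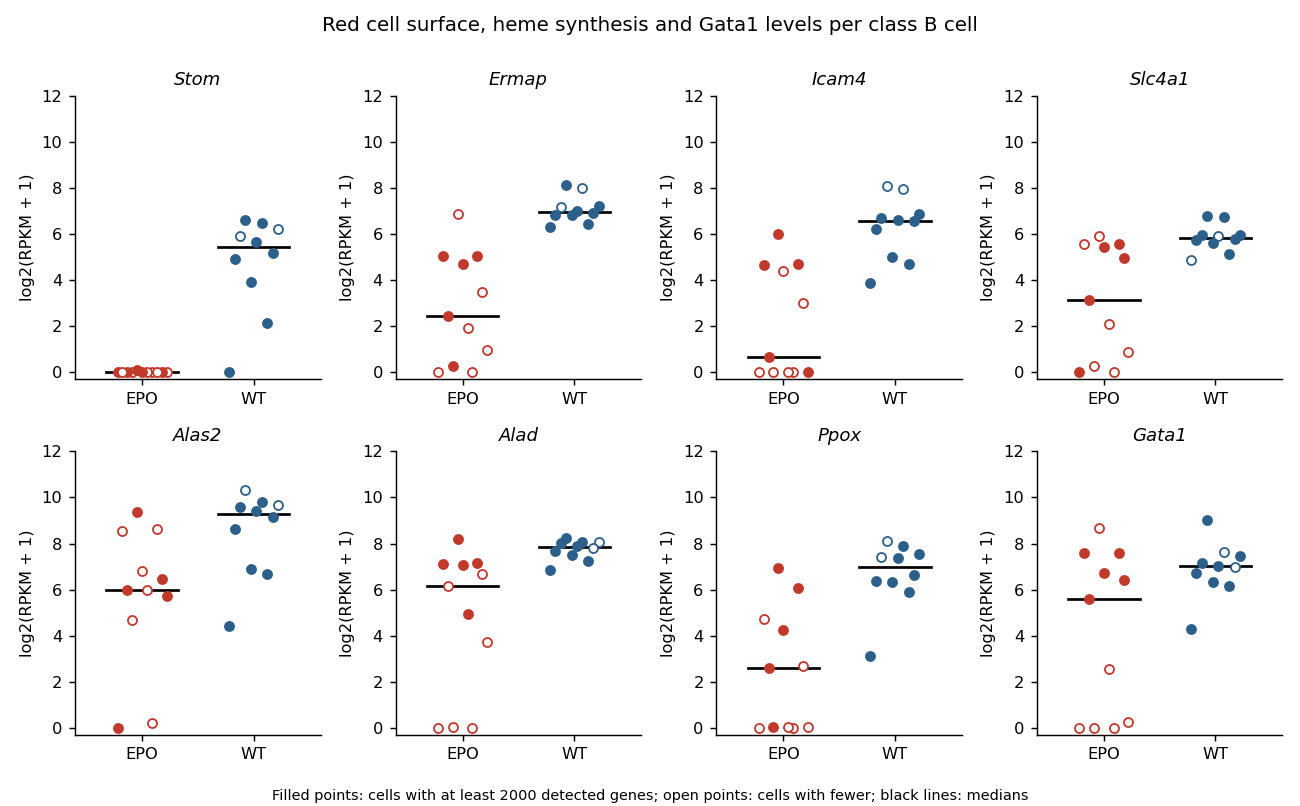
Points are levels, log2(RPKM + 1), of 8 genes in single class B cells, EPO-treated left and wild-type right, filled for cells with at least 2000 detected genes, with black lines at the medians. Stom is at or near 0 in all 11 EPO-treated cells, with a highest level of 0.11. For Gata1 the filled points of the groups differ in mean by -0.01.

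Sequences before the start of 4 of these genes are shown because GATA1 is known to act on red cell promoters. Promoters of low and of other members were not compared, so whether a match goes with a lower level was not tested. They are the 250 bases before the start, 5′ to 3′ on the gene's strand, from RefSeq on GRCm38.p6, a later build than the mm9 of the files. Capitals mark matches to AGATAA or TGATAA on either strand. Matches may share bases, and a promoter was counted once. The windows are chr1:171281187-171281436 on the minus strand for Ppox, chrX:150547167-150547416 on the plus strand for Alas2, chr4:119189996-119190245 on the minus strand for Ermap and chr9:21029182-21029431 on the plus strand for Icam4.
Ppox: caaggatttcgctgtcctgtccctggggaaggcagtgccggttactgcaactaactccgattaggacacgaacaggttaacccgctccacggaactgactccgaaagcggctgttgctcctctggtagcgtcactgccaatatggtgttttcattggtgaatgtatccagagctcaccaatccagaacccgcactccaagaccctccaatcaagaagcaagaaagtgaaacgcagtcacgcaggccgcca
Alas2: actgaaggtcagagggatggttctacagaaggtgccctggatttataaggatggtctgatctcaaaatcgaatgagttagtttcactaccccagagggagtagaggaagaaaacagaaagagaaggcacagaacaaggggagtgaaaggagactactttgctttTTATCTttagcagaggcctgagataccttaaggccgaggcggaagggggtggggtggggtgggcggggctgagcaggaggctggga
Ermap: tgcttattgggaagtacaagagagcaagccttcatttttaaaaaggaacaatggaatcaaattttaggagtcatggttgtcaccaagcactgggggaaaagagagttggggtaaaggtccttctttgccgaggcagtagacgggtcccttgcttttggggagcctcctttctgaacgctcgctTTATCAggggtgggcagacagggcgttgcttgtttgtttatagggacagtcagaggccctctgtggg
Icam4: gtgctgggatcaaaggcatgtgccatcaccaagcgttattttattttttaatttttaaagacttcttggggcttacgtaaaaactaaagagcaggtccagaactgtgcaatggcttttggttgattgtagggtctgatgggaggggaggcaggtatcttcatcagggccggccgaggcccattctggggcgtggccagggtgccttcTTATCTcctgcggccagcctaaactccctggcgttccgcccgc
Alas2, Ermap and Icam4 each had 1 match and Ppox had 0. Over the list of membrane genes, 10 of 30 promoters held a match (33.3%), counting 24 genes with an entry in the table. Over heme synthesis, 3 of 16 promoters did (18.8%, 13 genes), beside 10.4% of the 3361 promoters of kept genes and 16.6% of all 32851. For the embryonic globins, which stood higher in EPO-treated cells, 3 of 3 promoters held a match (100%). For the EPO pathway 2 of 21 did (9.52%, 15 genes). The motif CCNCNCCCN, of the kind KLF1 binds, was in 60% of the membrane promoters, 68.8% of the heme synthesis promoters and 59.9% of the promoters of kept genes. A match is a description of these letters, not of binding.

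The regulators of the erythroid program include the gene of GATA1 itself. Gata1 (NM_008089) had 0, 5.57 and 8.67 in EPO-treated cells, against 4.30, 7.01 and 9.03 in wild-type cells, a difference of -2.76. Detection was in 7 of the 11 EPO-treated cells (63.6%, 30.8% to 89.1%) and in 10 of the 10 wild-type cells (100%, 69.2% to 100%). The 4 EPO-treated cells without it had 991 to 1771 detected genes, and the 7 with it had 1441 to 3982. In the cells with at least 2000 detected genes Gata1 had 5.57, 6.71 and 7.57 in EPO-treated cells, against 4.30, 6.89 and 9.03 in wild-type cells, and the difference was -0.01. In the 5 EPO-treated and 10 wild-type cells with 1500 to 3746 detected genes, the range both groups share, it was -1.17. Of those EPO-treated cells, cell 29 was at 0 and the others at 5.57 to 8.67. The median of detected genes in this range was 2028 in EPO-treated and 3033.5 in wild-type cells.

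Klf1 (NM_010635), a zinc finger factor of globin and membrane genes, differed by -1.18, or by -0.60 in the cells with at least 2000 detected genes. Its relative Klf3 (NM_008453) had 0, 0 and 6.08 in EPO-treated cells, against 0.28, 5.05 and 8.39 in wild-type cells, a difference of -3.67, or -1.87 in those cells. Lmo2, a bridging protein of the GATA1 complex, differed by -0.01, or -1.40 in those cells, and Tal1, its partner, by -0.60. Of 14 kept factors 8 were lower by at least 1 (39% of all kept genes were), 0 were higher, and the median was -1.10. Relative to the median gene 3 were lower by at least 1 and 0 were higher, beside 19.7% and 17.7% of all kept genes. Among cells with at least 2000 detected genes 4 of 15 were lower, near the 25.8% of all genes there, and the median was -0.52.

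Adult globin levels were close. Hbb-b1 (NM_001278161), the adult beta chain, had 12.83, 14.24 and 17.04 in EPO-treated cells, against 13.93, 14.78 and 17.19 in wild-type cells, and differed by -0.44. Hba-a1 (NM_008218), the alpha chain, differed by -0.57. The copies of each adult globin gene share nearly all their sequence and had nearly equal values here, so they cannot be read apart. None of the 6 adult globin genes differed by 1 or more, and their median was -0.44, or -0.16 in the cells with at least 2000 detected genes.

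Embryonic globins stood higher. Mice use these genes in the yolk sac, before the adult genes take over. Hbb-y (NM_008221), an embryonic beta-like chain, was detected in 4 of the 11 EPO-treated cells (36.4%, 10.9% to 69.2%) and in 0 of the 10 wild-type cells, where a true share up to 30.8% is possible, and those intervals overlap. Cells 6, 5, 29 and 15 held it, at 6.15, 7.60, 8.15 and 8.73, while the other 7 EPO-treated cells were at 0.32 or less and the highest wild-type cell was at 0.48. The cells came from both EPO chips, since cell 29 was on chip 6 and the others on chip 7. The difference was 2.78, or 2.81 in the cells with at least 2000 detected genes.

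Hbb-bh1 (NM_008219), another embryonic beta-like chain, had 3.71, 6.91 and 9.12 in EPO-treated cells, against 0, 5.93 and 8.16 in wild-type cells, a difference of 1.45. The ranges overlapped, and wild-type cells 1 and 6 were the low ones. EPO-treated cells 15, 29 and 5 had the highest Hbb-bh1 of their group and also its highest levels of the far more abundant Hbb-b1. The same held for wild-type cells 44 and 23. Hbb-y was also high in EPO-treated cells 15, 29 and 5, but it was at 0 and 0.48 in wild-type cells 44 and 23. Whether reads of Hbb-b1 were counted for Hbb-bh1 or Hbb-y was not tested, so these values are not read as embryonic gene expression alone. The Hbb-bh1 difference was 1.90 in the cells with at least 2000 detected genes. Hba-x (NM_010405), the embryonic alpha-like chain, differed by 0.70, detected in 7 of the 11 EPO-treated and 4 of the 10 wild-type cells. Over the list 2 of 3 kept genes were higher by at least 1, beside 5.94% of all kept genes. In the cells with at least 2000 detected genes 4 of 4 were, beside 19.6%, and the median was 1.99. Hbb-y was kept only through its EPO-treated cells, with means of 2.83 there and 0.05 in wild-type cells. Its side in this list is therefore no separate result. In classes C and D, whose cells are other cells of the same chips, Hbb-y differed by 3.75 and 5.14 and Hbb-bh1 by 2.21 and 2.91.

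Of 21 listed genes of the EPO pathway 3 were kept. Cish (NM_009895), a feedback inhibitor of the receptor, was detected in 2 of the 11 EPO-treated cells (18.2%, 2.28% to 51.8%), at 5.64 in cell 11 and 3.40 in cell 15, and in 0 of the 10 wild-type cells, where up to 30.8% is possible. Fam132b (NM_173395), the erythroblast hormone that lowers hepcidin, was detected in 1 of the 11 EPO-treated cells, again cell 11 at 5.11, and in 1 of the 10 wild-type cells, cell 1 at 3.88. In class C it was detected in 7 of the 9 EPO-treated and 1 of the 19 wild-type cells. Cish was detected in class C in 5 of the 9 EPO-treated and 4 of the 19 wild-type cells.

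The receptor Epor (NM_010149) had 0, 0 and 4.41 in EPO-treated cells, against 0, 0.24 and 5.28 in wild-type cells, a difference of -0.15. Detection was in 4 of the 11 EPO-treated and 4 of the 10 wild-type cells, and its level was not tested. Jak2 (NM_001048177), the kinase bound to it, differed by -1.33, and Pim1 (NM_008842), a Stat5 target kinase, by 0.33. Socs1, Socs2, Socs3, Pim3, Bcl2l1 and Id1 were listed at 0 in all 21 cells. Pcbp1, an RNA-binding protein, and Sf3b5, of the spliceosome, both of wide use in cells, were listed at 0 in all of them too, so a 0 here is not read as low expression.

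The comparison also touches the heme exporter that the series was built around. Its gene Flvcr1, named Mfsd7b (NM_001081259) in the table, was listed at 0 in all 21 cells, as were Hmox1 (NM_010442), which degrades heme, and Kit (NM_021099), a receptor of early progenitors. Abcg2 (NM_011920), a transporter that can carry porphyrins and heme, had 0, 7.12 and 9.46 in EPO-treated cells, against 0, 5.62 and 7.89 in wild-type cells, a difference of 1.40. The 2 chip 6 cells were among its 3 highest, and without them the difference was 0.86.

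Iron genes were less far from the median gene than heme genes. Tfrc (NM_011638), the transferrin receptor that brings iron in, differed by -0.73, close to the median gene. The ferritin heavy chain gene Fth1 differed by -0.06. Isca2 (NM_028863), which assembles iron-sulfur clusters in mitochondria, had 0, 0 and 8.45 in EPO-treated cells, against 2.31, 6.78 and 8.96 in wild-type cells, the largest negative difference of all named genes at -4.73. It was high in EPO-treated cells 11, 6 and 29 and at 0 in the other 8, and differed by -4.43 in the cells with at least 2000 detected genes. Of 20 kept iron genes 10 were lower by at least 1 (39% of all kept genes were) and 0 were higher. Measured from the median gene 3 were lower and 1 was higher, beside 19.7% and 17.7% of all kept genes. The list median of -0.99 became 0.07 in the cells with at least 2000 detected genes.

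Ribosomal protein genes went the other way. All 78 were kept, 15 were higher by at least 1 and 4 were lower, with a median difference of 0.28 beside -0.66 over all genes. Measured from the median gene, 36 were higher by at least 1 and 0 were lower, beside 17.7% and 19.7% of all kept genes. The median was -0.05 without the 2 chip 6 cells, where the median of all genes was also -0.66. It was 0.81 in the cells with at least 2000 detected genes, where 26 of 78 were higher and 0 were lower. All genes kept in those cells had 19.6% higher and 25.8% lower, with a median of -0.13. The mean over the 78 genes was 4.00, 9.24 and 9.90 in EPO-treated cells, against 4.47, 8.60 and 9.20 in wild-type cells. The low cells were EPO-treated cells 8, 23 and 12, with the fewest detected genes of their group, and wild-type cells 44 and 23, with the highest globin shares. The other 8 EPO-treated cells lay between 9.09 and 9.90, and the other 8 wild-type cells between 8.10 and 9.20.

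Rps15 (NM_009091), of the small subunit, had 4.29, 9.91 and 10.77 in EPO-treated cells, against 3.20, 8.32 and 9.07 in wild-type cells. All EPO-treated cells but cell 23 lay above every wild-type cell, and the difference was 1.91, or 1.80 in the cells with at least 2000 detected genes. Rpl26 (NM_009080) differed by 1.83, and Gm15772 by 1.84, with values so close to those of Rpl26 that both may count the same reads. In classes C and D the ribosomal protein list stood lower in EPO-treated cells, with medians of -1.36 and -2.52 beside -1.06 and -0.98 over all kept genes.

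**Figure D3:**
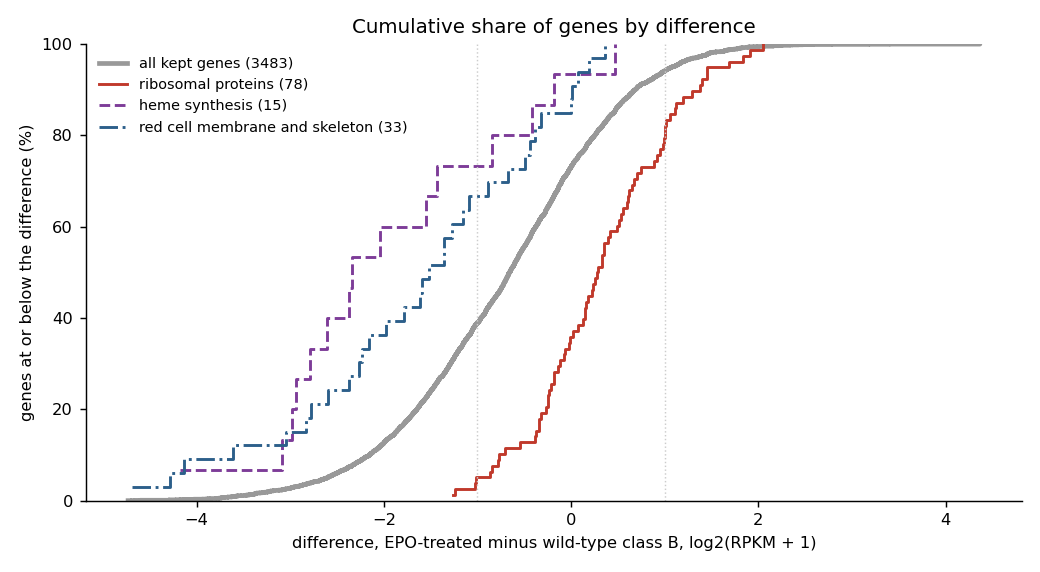
Lines give the percentage of genes at or below each difference, EPO-treated minus wild-type, for all 3483 kept genes and 3 lists, with numbers of genes in brackets and dotted lines at -1 and 1. The line of ribosomal proteins lies to the right of that of all genes, and those of heme synthesis and membrane genes to its left, with medians of 0.28, -0.66, -2.34 and -1.52.

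The gene with the largest positive difference made no protein. Snhg1 (NR_002896), a host transcript of small nucleolar RNAs, had 0, 6.95 and 9.54 in EPO-treated cells, against 0, 1.07 and 6.47 in wild-type cells. It was detected in 10 of the 11 EPO-treated and 5 of the 10 wild-type cells and differed by 4.37, or 3.55 in the cells with at least 2000 detected genes. Snhg9 (NR_027900), another such host, differed by 2.33, or 1.20 in those cells. Others of this kind, looked up after these values were seen, were not alike: Snhg3 differed by 1.64, Gas5 by 0.35, Snhg6 by 0.08 and Snhg12 by -0.93. In classes C and D Snhg1 differed by 0.31 and -1.51.

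Other genes with large positive differences included the following, which were not a list of their own. Mrpl33 (NM_025796), of the mitochondrial ribosome, had 3.99, 7.07 and 9.01 in EPO-treated cells, against 0, 3.45 and 7.74 in wild-type cells, a difference of 3.18. No EPO-treated cell was at 0, against 3 wild-type cells, and the difference was 2.19 in the cells with at least 2000 detected genes. Cox5a (NM_007747), of respiratory complex IV, differed by 2.17, Ndufs5 (NM_001030274), of complex I, by 2.16 and Mrps21 (NM_078479), of the mitochondrial ribosome, by 1.90. Hspe1 (NM_008303), the small chaperonin of mitochondria, differed by 2.15, and by 3.53 in the cells with at least 2000 detected genes, where it was detected in 5 of the 5 EPO-treated and 6 of the 8 wild-type cells. The oxidative phosphorylation list as a whole had 5 higher and 26 lower of 79, with a median of -0.47, beside 5.94% and 39% of all kept genes. Measured from the median gene, 20 were higher by at least 1 and 7 were lower, beside 17.7% and 19.7% of all kept genes. In the cells with at least 2000 detected genes it had 27 higher and 8 lower, with a median of 0.63. All genes kept in those cells had 19.6% higher and 25.8% lower, with a median of -0.13. Of the genes named here, Mrpl33 differed in classes C and D by -0.99 and -3.18, and Mrps21 by -2.22 and -2.66. Cox5a differed there by -0.38 and -1.13, Hspe1 by -0.19 and -0.54 and Ndufs5 by 0.27 and -1.27. The medians over all kept genes there were -1.06 and -0.98.

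Across genes the Spearman rho of difference and transcript length was -0.06, but the shortest genes differed from the others. Kept genes were put into 5 bins of transcript length. In the shortest, 183 to 1208 bases, the median difference was -0.38, 10.7% were higher by at least 1 and 30.2% were lower, while in the other bins the medians ran from -0.77 to -0.61, 4.06% to 6.11% were higher and 33.9% to 44.1% were lower. With the median of its length bin taken off each difference, the median was 0.76 for ribosomal proteins, where 35.9% of members were higher by at least 1 beside 17.2% of all genes. With the same step, the median of adult globins, of heme transport and of antioxidants changed side of the median gene.

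**Figure D4:**
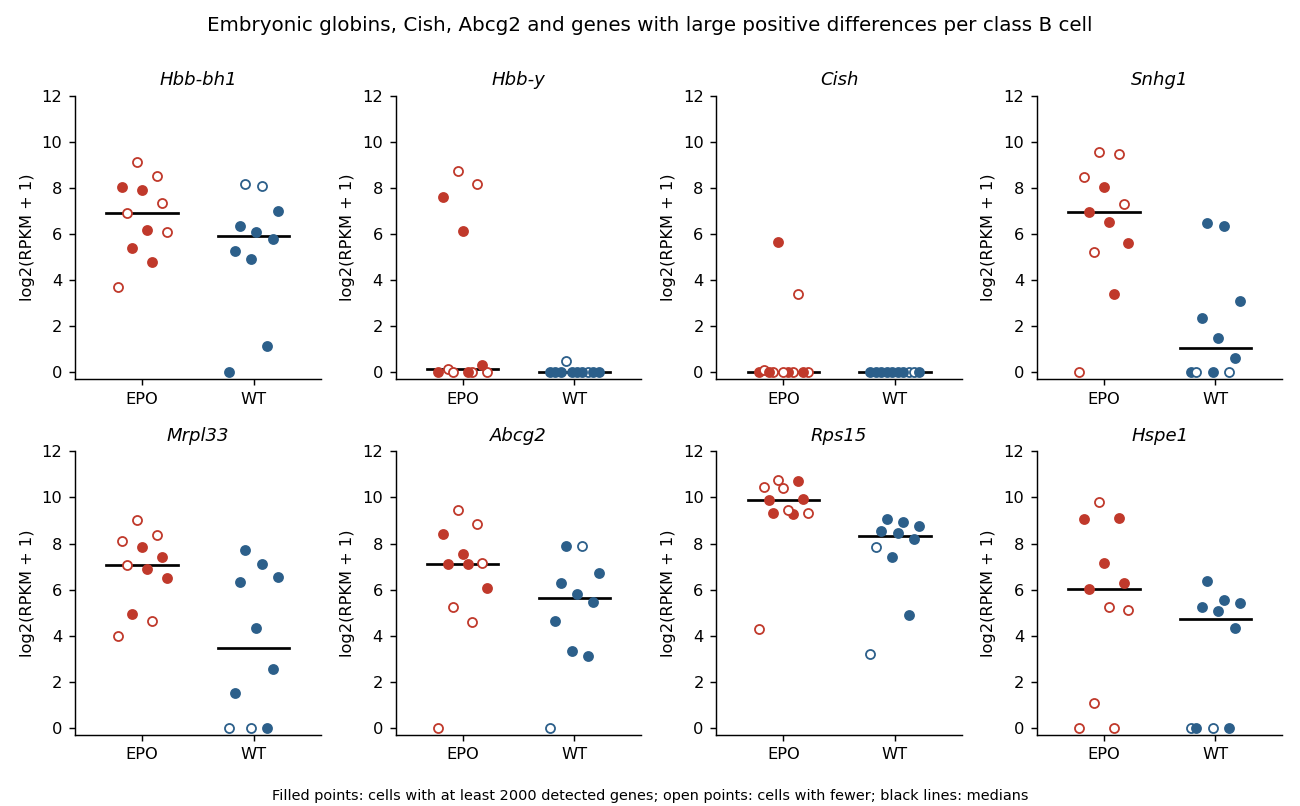
Points are levels, log2(RPKM + 1), of 8 genes in single class B cells, EPO-treated left and wild-type right, filled for cells with at least 2000 detected genes, with black lines at the medians. Hbb-y is high in 4 of the 11 EPO-treated cells and in 0 of the 10 wild-type cells, and Rps15 is higher in all EPO-treated cells but 1 than in any wild-type cell.

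Genes of the cell cycle stood lower in EPO-treated cells. Of 57 kept genes of DNA replication, 31 were lower by at least 1 and 1 was higher, with a median of -1.14. Measured from the median gene, 17 were lower by at least 1 and 5 were higher, beside 19.7% and 17.7% of all kept genes. Mcm7 (NM_008568), a subunit of the replicative helicase, had 0, 1.36 and 8.66 in EPO-treated cells, against 5.51, 8.09 and 9.22 in wild-type cells, a difference of -4.66, or -3.14 in the cells with at least 2000 detected genes. The EPO-treated cells were spread, with cells 11 and 29 above 8 and 6 cells below 1.5. Cdc6 (NM_001025779), which loads that helicase, differed by -3.08 and Mcm2 (NM_008564), another subunit, by -2.76, and by -1.69 and -3.06 in the cells with at least 2000 detected genes.

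Of 64 kept genes of mitosis, 43 were lower by at least 1 and 2 were higher, with a median of -1.27. Relative to the median gene 23 were lower by at least 1 and 3 were higher, beside 19.7% and 17.7% of all kept genes. Kif22 (NM_145588), a chromosome-binding kinesin, had 0, 0.10 and 8.93 in EPO-treated cells, against 4.31, 7.76 and 8.46 in wild-type cells, a difference of -4.30. Detection was in 5 of the 11 EPO-treated cells, of which cells 15, 19 and 6 lay below every wild-type cell but cell 23, and in all wild-type cells. Prc1 (NM_001285998), which bundles spindle microtubules, differed by -4.22 and Ccnb1 (NM_172301), cyclin B1, by -3.58, but by -1.84 and -1.15 in the cells with at least 2000 detected genes. In those cells the medians were -0.77 for replication, with 28 of 60 lower, and -0.88 for mitosis, with 28 of 63 lower. Over all genes kept in those cells 25.8% were lower.

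Class I antigen presentation and interferon genes had 15 lower and 0 higher of 20 kept, with a median of -1.70. Over all kept genes 39% were lower by at least 1 and 5.94% were higher. Relative to the median gene 10 of these were lower and 2 were higher, beside 19.7% and 17.7% of all kept genes. H2-L (NM_001267808), H2-T23 (NM_010398) and H2-D1 (NM_010380), class I heavy chains whose copies are alike in sequence and may share reads, differed by -3.52, -2.90 and -2.41. In the cells with at least 2000 detected genes the list median was -1.65, close to its value over all cells. There 14 of 20 were lower, beside 25.8% of all genes kept in those cells. Genes of ubiquitin and of erythroid ubiquitin ligases had 12 lower and 0 higher of 16, with a median of -1.70, or -0.79 in those cells. Relative to the median gene 9 were lower and 1 was higher. Cul4a (NM_146207), a scaffold of ubiquitin ligases, differed by -3.32 and was detected in 3 of the 11 EPO-treated and 10 of the 10 wild-type cells. Actin and tubulin genes had 17 lower and 1 higher of 25, with a median of -1.58, or -0.30 in those cells. Relative to the median gene 11 were lower and 1 was higher. Tubb4b (NM_146116), a beta tubulin, had 0, 3.59 and 7.87 in EPO-treated cells, against 6.08, 7.01 and 7.58 in wild-type cells.

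Over all kept genes 39% were lower by at least 1 and 5.94% were higher. List counts near these shares are not read as results. For the other lists, the medians were -1.22 for autophagy (6 lower and 1 higher of 11), -0.99 for the proteasome (18 and 1 of 37) and -0.99 for glycolysis (6 and 0 of 12). They were -0.97 for cyclins (6 and 0 of 12) and -0.97 for apoptosis regulators (3 and 0 of 8). They were -0.75 for antioxidants (11 and 3 of 22), -0.73 for the integrated stress response (4 and 0 of 14), -0.65 for heme transport (2 and 1 of 4) and -0.60 for splicing factors (17 and 3 of 53). They were -0.51 for translation factors (11 and 3 of 42), -0.40 for histones (2 and 0 of 6), -0.21 for ribosome biogenesis (5 and 2 of 19) and -0.14 for heat shock proteins (4 and 4 of 20). Ppp1r15a (NM_008654), which reverses the stress block of translation, stood out with a difference of -4.17 and levels of 0, 3.67 and 9.17 in EPO-treated cells, against 3.32, 7.68 and 9.31 in wild-type cells. Of 24 immediate early genes and 23 regulators of stress erythropoiesis, 0 were kept.

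**Figure D5:**
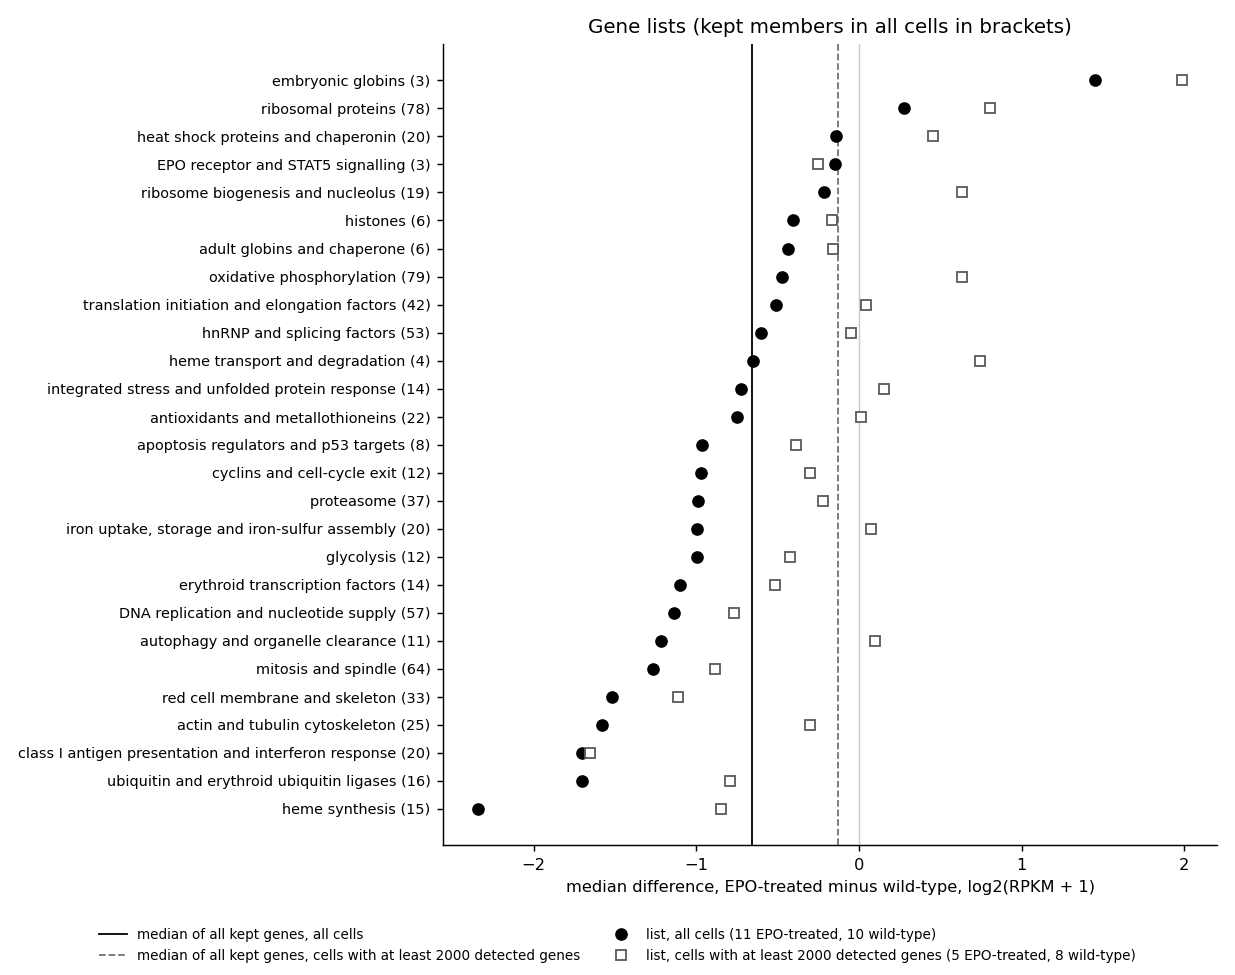
Points are median differences, EPO-treated minus wild-type, of each gene list with at least 3 kept members, filled for all cells and open squares for cells with at least 2000 detected genes. The vertical lines are the medians of all kept genes at -0.66 (all cells) and -0.13 (at least 2000 detected genes). Heme synthesis lies farthest left in all cells at -2.34, and class I genes farthest left among the squares at -1.65.

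Relative to the median gene, 9 lists stood lower over all cells and under each of the 15 other settings named under the dependence on processing. These were heme synthesis (-2.02 to -0.72 below the median gene), red cell membrane (-1.58 to -0.45), class I genes (-1.66 to -0.42), ubiquitin genes (-1.32 to -0.48), mitosis (-1.12 to -0.24), DNA replication (-0.89 to -0.23), erythroid transcription factors (-0.84 to -0.07), actin and tubulin genes (-1.15 to -0.12) and the erythroid markers (-1.10 to -0.14). Embryonic globins (1.06 to 3.07), ribosomal proteins (0.33 to 1.81) and ribosome biogenesis (0.04 to 0.85) stood higher under each of them. When 1 cell at a time was left out, the erythroid markers reached 0.0087, the other side of the median gene. The other lists named in this paragraph kept their side.

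Classes C and D gave other cells of these chips, with none of class D on chip 6. In class C 65 of 2592 kept genes were higher in EPO-treated cells by at least 1 (2.51%) and 1339 were lower (51.7%), and in class D 208 of 2170 were higher (9.59%) and 1072 were lower (49.4%). Of the 1359 genes lower in class B, 1020 were kept in class C and 664 of those were lower there by at least 1 (65.1%), beside 53.5% of all genes kept in both classes. In class D it was 506 of 846 (59.8%), beside 53%. The difference was 0 or above for 118 of the 1020 genes in class C and 167 of the 846 in class D. Of the 207 genes higher in class B, 131 were kept in class C and 8 of those were higher there (6.11%), beside 2.06% of all genes kept in both. In class D it was 12 of 104 (11.5%), beside 7.16%. Most of these genes did not keep their direction: 99 of the 131 were at 0 or below in class C and 78 of the 104 in class D. The medians over all kept genes there were -1.06 and -0.98. Stom differed by -4.33 and -3.27 in classes C and D, where it was detected in 2 of 9 and 2 of the 4 EPO-treated cells, against 19 of 19 and 13 of the 13 wild-type cells. The red cell membrane list had medians of -2.38 and -0.95 in classes C and D, and heme synthesis had -1.76 and -1.02. Whether class B differs from the other classes was not tested.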

How the data were processed

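Each library held 1 marrow cell, imaged for Ter119 on its chip and amplified by SMART-Seq, per the labels' protocols. The authors deposited RPKM values per RefSeq transcript, as 1 table for all cells. The submitters' processing notes name TopHat2 2.0.9 and the build mm9. Read depth and the counting tool were not given in the sources used here. Also present in the table were 4 columns of no sample, which were left out.

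Each of 24320 symbols kept its row with the highest mean, and log2(RPKM + 1) was compared as group means in python 3.11.15 with numpy 2.4.6, pandas 2.3.3 and scipy 1.17.1. Genes were kept at a mean level of at least 1. The procedure was tried on values drawn from the wild-type cells, with known differences put into genes well detected in every drawn cell. That trial put in no group difference in detected genes, so it does not bear on genes missed in shallow cells. Intervals of shares are Clopper-Pearson exact intervals at 95%.

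The text names genes from the 12 largest differences in each direction, the 3 largest of each list and a fixed set. The ranked genes also had to keep their sign without chip 6 and be detected in most cells of the higher group. Other genes of the lists, among them Uros, Urod, Cpox, Fech, Slc25a38, Abcb10, Tmem14c, Epb4.2, Gypc, Cd24a, Tmod1, Tal1, Lmo2, Fth1 and the further small nucleolar RNA hosts, were chosen after their values were seen. The members and the lists were chosen with earlier results of these data known. The promoters came from RefSeq on GRCm38.p6, and transcript lengths from GENCODE. Some genes are not reported here.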

Additional observations from a re-analysis of the deposited data

Results flagged for a closer look

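In the 10 wild-type cells, 39 sets of values were searched for a cell far from the others, and 6 had one. The limit used gives about 1 in 20 by chance only for normally distributed values. Some of these sets hold many cells at 0, so the 6 cannot be set against that rate. The group of 11 EPO-treated cells is above the size to which this search applies. Kif22 was 4.31 in cell 23, with the next at 7.45. Tom1l1 was 0 in cell 37, with the next at 3.09. Ppox was 3.12 in cell 1, with the next at 5.91. Ppp1r15a was 3.32 in cell 42, with the next at 6.52. Fam132b was 3.88 in cell 1, with the next at 0.65. Hbb-y was 0.48 in cell 23, with the others at 0. All are levels on the log2(RPKM + 1) scale.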

How the results depend on the processing

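No paired analysis was possible because the labels name no animal and the cells of the groups share no replicate. Besides leaving out cells in turn, 15 settings were tried: pseudocounts of 0.1 and 10, no filter on low values, a filter over all cells of the series, scaling to 1 sum with and without globins, quantile normalization, summed transcripts of a symbol, no chip 6 cells, medians over cells, a log2 ratio of mean RPKM, the shared range of detected genes, at least 2000 detected genes, genes at 0 in a whole group left out, and the median of the length bin taken off. The 207 genes higher by at least 1 became 69 with a pseudocount of 10, 600 with quantile normalization, 579 with a log2 ratio of mean RPKM, 585 in the cells within the shared range of detected genes and 793 in the cells with at least 2000 detected genes. The 1359 genes lower by at least 1 became 423 with a pseudocount of 10. Leaving out 1 cell at a time gave 154 to 290 genes higher, 1230 to 1573 lower and a median difference of -0.84 to -0.54. The median difference kept its sign under each setting, between -1.17 with a pseudocount of 0.1 and -0.13 in the cells with at least 2000 detected genes. In the shared range Blvrb turned to 0.0385 and H3f3b to 0.30. In the cells with at least 2000 detected genes the autophagy median turned to 0.10, Slc48a1 to 0.39, Ccne2 to 0.19 and Gp9 to 0.14. The cause was not tested, although both of these settings use fewer cells. The limit of 2000 genes and the length bins were chosen after seeing the data. With 1 sample a group, cells that miss a gene and cells that lack it cannot be told apart.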

Other observations

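Xist, made from the inactive X chromosome, and 4 Y-linked genes (Ddx3y, Eif2s3y, Uty and Kdm5d) were looked up after other values had been seen. In EPO-treated class B cells 3 had Xist alone, 4 had Y genes alone, 0 had both and 4 had neither. In wild-type class B cells 7 had Xist alone, 2 had Y genes alone, 0 had both and 1 had neither. Both groups thus held cells with Xist and cells with Y genes, and the part of this in the comparison was not tested.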
